A study of Sus scrofa with 30 samples.

Results

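The genes described here are 10 porcine genes for the synthesis of estrogens from cholesterol and for the electron supply of that synthesis. They were taken by symbol from the table of all embryos, in which features carry NCBI gene numbers, and all 10 of the listed genes (STAR, CYP11A1, CYP17A1, CYP19A1, CYP19A2, CYP19A3, HSD17B1, FDX1, FDXR and POR) were found among its 13103 genes. They were listed by name and role, with no threshold on a measured value, but with earlier results of these data known. The study sequenced polyadenylated RNA of 30 whole pig embryos (Sus scrofa), with 5 females and 5 males from each of 3 stages, namely Days 8, 10, and 12 after insemination. The embryos were flushed from the uteri of German Landrace × Pietrain gilts inseminated with semen of a single Pietrain boar, and 4 gilts were slaughtered per day. Before insemination all gilts were cycle synchronized with altrenogest and then given the gonadotropins PMSG and human chorionic gonadotropin. The embryos themselves received no treatment, and an embryo holds the embryonic disc together with the trophectoderm, the outer layer that later forms the placenta. The study states that embryos of both sexes were taken from a shared litter at each stage, but the labels do not name the gilt of an embryo, so littermates cannot be identified here.

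Estrogen synthesis begins at the mitochondrion, where STAR brings cholesterol to the inner membrane and the cytochrome P450 enzyme CYP11A1 cleaves its side chain to give pregnenolone. CYP11A1 receives its electrons from ferredoxin (FDX1), which is reduced by ferredoxin reductase (FDXR). In the endoplasmic reticulum CYP17A1 converts C21 steroids to androgens, aromatase (the product of the CYP19 genes) converts androgens to estrogens, and both draw electrons from cytochrome P450 oxidoreductase (POR), while HSD17B1 reduces estrone to the more active estradiol. The pig conceptus is known to release estrogens around the time it elongates, and these serve as its signal for the maternal recognition of pregnancy. Unlike most mammals, the pig carries several CYP19 genes side by side.

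Libraries held between 6068212 and 34002508 counts, the smallest being female embryo d12_f_245 of Day 12, where 3 counts correspond to 0.434 CPM (counts per 1000000 counts). Of the marker lists for parts of the embryo, 10 of 10 trophectoderm genes and 9 of 10 epiblast genes were in the table. The summed trophectoderm markers ranged between 21658 and 26045 CPM on Day 8, between 35258 and 52337 on Day 10 and between 9390 and 27428 on Day 12 and moved in the same directions as the steroid genes. Most of this sum was KRT8 and KRT18 (24502 and 16628 CPM on the mean on Day 10). Of the 10 markers, 2 were called higher and none lower on Day 10, with negative log2 fold changes for 5 (GATA3, TFAP2C, TEAD4, GATA2 and TFAP2A). Between Day 10 and Day 12, 5 were called lower, whereas GATA3 (1.23) and TFAP2A (1.04) were called higher. Of all genes, 9.88% were called higher and 4.2% lower on Day 10. By Day 12, 14.9% were called higher and 8.39% lower than on Day 10. The summed epiblast markers, at 580 to 732, 812 to 1771 and 612 to 1189 CPM, also had their highest median on Day 10. Within this sum, TDGF1 went from a mean of 14.0 to 685 and then 90.4 CPM. TDGF1 and LIN28B were called higher on Day 10, whereas POU5F1 and PRDM14 were called lower. NANOG, SOX2, SALL4 and LIN28A also had negative log2 fold changes on Day 10. The summed hypoblast markers (7 of 8 in the table) had medians of 903, 1134 and 2859 CPM on Days 8, 10 and 12, most of it APOA1. Within this list GATA6 was called lower on Day 10 than on Day 8. For primitive streak and mesoderm markers (4 of 8) the medians were 3.65, 72.5 and 1067 CPM, with HAND1 as most of the sum on Days 10 and 12. T and EOMES were called lower on Day 12 than on Day 10. The part of these cell types in the results was not tested. Of 7 markers of ovarian and luteal cells only PRLR was in the table, at no more than 11.08 CPM in any embryo, and of 8 blood cell markers 2 were present with a sum of at most 10.6 CPM. Of the uterine list of 9, 6 genes were in the table, with sums of 11.9 to 29.3, 13.1 to 94.8 and 132.8 to 470 CPM on the 3 days, most of it RBP4 on Day 12. In whole embryos, fewer cells of a type and less RNA per cell cannot be told apart, and a CPM is a share of the RNA of an embryo, not an amount per embryo.

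Each of the 10 genes had its highest mean on Day 10. Between Day 8 and Day 10, 8 of the 10 genes rose past the thresholds of the study (FDR below 0.001 with a log2 fold change larger than 1 in size, edgeR quasi-likelihood test with Benjamini-Hochberg adjustment over all genes), and none fell, compared with 9.88% and 4.2% of all genes. The median log2 fold change of the 10 genes was 5.33, compared with 0.0286 over all genes. It was also 5.33 with the low-count CYP19 genes at their counting bounds, since these genes lie above the median at either value. Between Day 10 and Day 12 all 10 genes fell, compared with 8.39% of all genes that fell and 23.3% called in either direction, with log2 fold changes of -5.88 to -1.51 and a median of -4.44. The rise and the fall share the same Day 10 embryos.

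**Figure D1:**
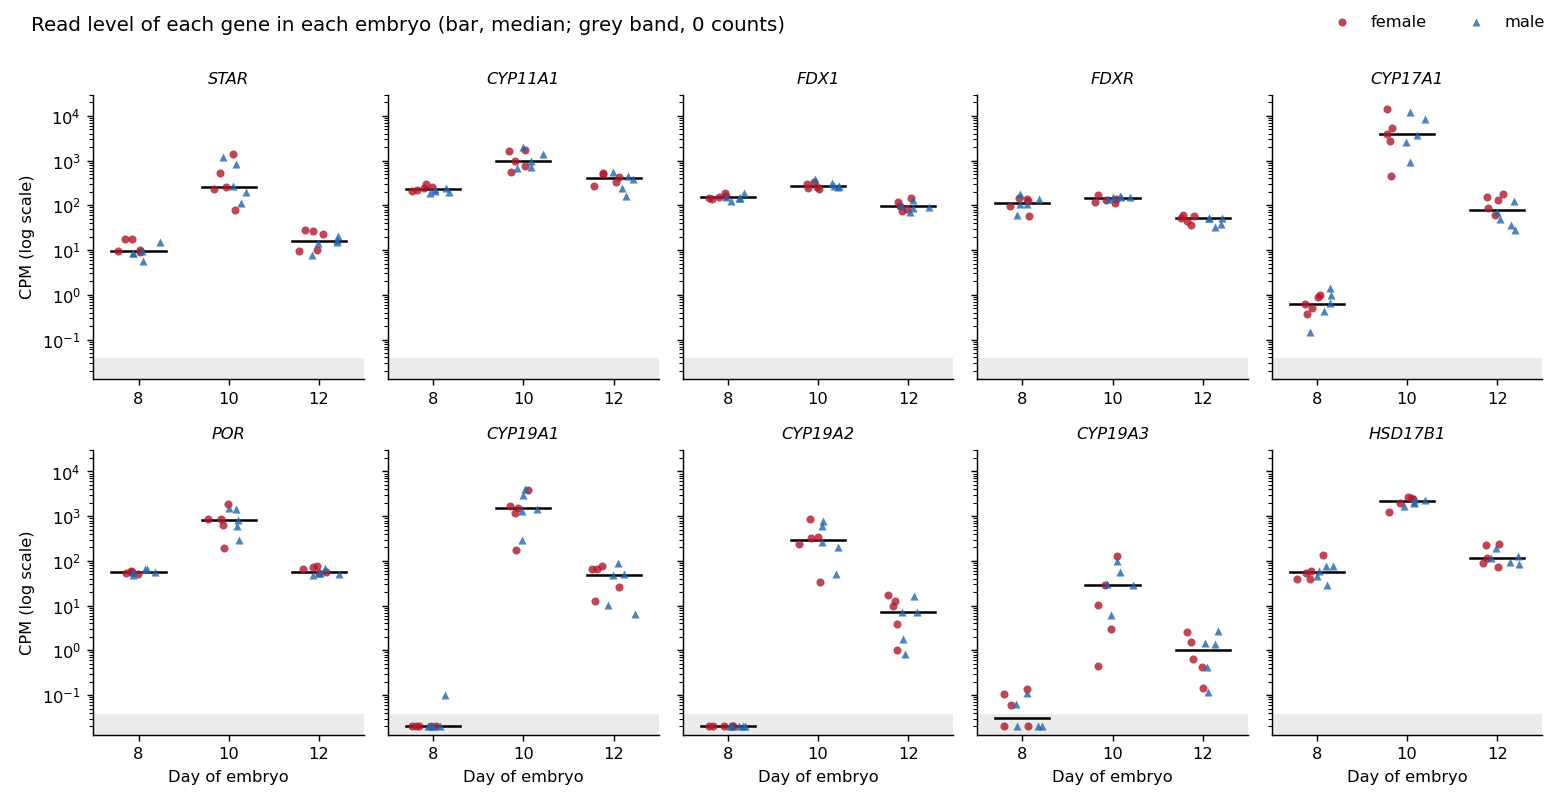
Read level (CPM, log axis) of the 10 genes in each of the 30 embryos by day; red circles are female embryos, blue triangles are male embryos, black bars are medians of 10 embryos, and points in the grey band had 0 counts. All Day 10 embryos lie above all Day 8 embryos for every gene but FDXR, and above all Day 12 embryos for every gene but CYP19A3. The share of all genes whose days do not overlap was not computed.

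STAR, which controls the delivery of cholesterol, ranged between 5.76 and 17.5 CPM on Day 8 (median 9.48), between 78.7 and 1406 on Day 10 (median 263) and between 7.78 and 28.0 on Day 12 (median 16.1). The lowest Day 10 embryo was above the highest embryo of either other day. The mean rose 46.0-fold from 11.14 ± 4.09 CPM to 513 ± 475 CPM (SD, n = 10 embryos per day throughout), and the log2 fold change was 5.52 (SE 0.47, FDR 4.30e-11). It then fell to 17.3 ± 7.27 CPM, a log2 fold change of -4.90 (SE 0.46, FDR 8.93e-11). Day 12 and Day 8 overlapped, and their difference of 0.62 on the log2 scale (SE 0.40) did not pass the test (FDR 0.158).

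CYP11A1, which makes pregnenolone, was already well above the detection floor in all 10 Day 8 embryos, with 191 to 306 CPM (median 229). On Day 10 it ranged from 564 to 2001 CPM (median 977) and on Day 12 from 165 to 557 CPM (median 409). No Day 10 embryo overlapped with those of either other day. Its mean went from 232 ± 34.3 to 1146 ± 505 and then to 387 ± 130 CPM. The rise of 2.31 on the log2 scale (SE 0.22, FDR 4.40e-10) was the smallest of the 8 that passed the thresholds, and the change to Day 12 was -1.57 (SE 0.21, FDR 2.12e-07). On Day 12, 7 of 10 embryos lay above every Day 8 embryo and 1 lay below all of them; the difference of 0.74 (SE 0.21, FDR 0.00235) stayed outside both thresholds.

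The electron carriers of CYP11A1 changed least between Day 8 and Day 10. FDX1 ranged between 125 and 191 CPM on Day 8 (median 151), between 236 and 382 on Day 10 (median 269) and between 70.8 and 149 on Day 12 (median 94.5). Again Day 10 overlapped with neither other day, but the 1.83-fold rise of the mean, a log2 fold change of 0.87 (SE 0.12, FDR 3.75e-07), was below the fold threshold. Its fall by Day 12 was -1.51 on the log2 scale (SE 0.12, FDR 3.62e-12). FDXR ranged between 58.6 and 181 CPM on Day 8 (median 114) and between 114 and 174 on Day 10 (median 145), so that every Day 10 embryo lay within the Day 8 range. The difference of 0.30 (SE 0.15) did not pass the test (FDR 0.0958). FDXR then fell to 33.3 to 60.5 CPM (median 51.3) on Day 12, with a log2 fold change of -1.57 (SE 0.16, FDR 4.36e-10) from Day 10 and -1.27 (SE 0.16, FDR 1.65e-08) from Day 8. It was the only one of the 10 genes that was called lower on Day 12 than on Day 8.

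CYP17A1, the enzyme of androgen formation, had the largest fold rise among those of the 10 genes with more than 3 counts in every Day 8 embryo. On Day 8 it had 4 to 37 counts per embryo, or 0.149 to 1.39 CPM (median 0.635). On Day 10 it ranged from 456 to 14224 CPM (median 3878) and on Day 12 from 28.0 to 180 CPM (median 78.7). The 3 days did not overlap. The mean rose 7740-fold, from 0.702 ± 0.369 to 5433 ± 4630 CPM, with a log2 fold change of 12.89 (SE 0.70, FDR 2.00e-15). The fall to 92.0 ± 52.0 CPM on Day 12 was -5.88 on the log2 scale (SE 0.52, FDR 2.72e-11), the largest fall of the 10 genes, and still left the mean 131-fold above that of Day 8 (log2 fold change 7.01, SE 0.58, FDR 4.07e-12). On Day 10 it took between 0.0456 and 1.18% of all counts (median 0.354%). Among all genes by count, without correction for length, it ranked 347 in female d10_f_433 and 4 in female d10_f_454, with a median rank of 21.5. The 10 genes together took 0.0581 to 0.0844% of the counts on Day 8, 0.317 to 2.26% on Day 10 and 0.0637 to 0.124% on Day 12.

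POR, which passes electrons to CYP17A1 and aromatase, was the most even of the 10 genes on Day 8, with 49.2 to 65.6 CPM (median 56.2). It ranged between 194 and 1852 CPM on Day 10 (median 839) and between 49.5 and 76.9 CPM on Day 12 (median 55.7). Levels on Day 10 stood clear of those of both other days, which overlapped. The mean rose 15.9-fold from 56.9 ± 5.36 to 907 ± 539 CPM (log2 fold change 3.99, SE 0.27, FDR 3.71e-13) and fell by the same order to 60.7 ± 9.95 CPM (log2 fold change -3.90, SE 0.27, FDR 1.41e-13). Day 12 differed from Day 8 by 0.09 on the log2 scale (SE 0.24, FDR 0.746).

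The aromatase genes lie on chromosome 1 of the Sscrofa11.1 assembly in the order CYP19A3 (chr1:120476890-120556103), CYP19A1 (chr1:120596235-120627806) and CYP19A2 (chr1:120652172-120695899). Their sequences are closely related, so reads may have been split between them in counting, and the values of each gene are uncertain for that reason. On Day 8 they were at or near 0. CYP19A1 had 2 counts in all, both in male embryo d08_m_133, CYP19A2 had none, and CYP19A3 had 12 counts over 5 embryos. On Day 10 all 10 embryos expressed all 3 genes above 3 counts. CYP19A1 ranged from 180 to 4010 CPM (median 1509), CYP19A2 from 34.3 to 852 CPM (median 295) and CYP19A3 from 0.454 to 129.4 CPM (median 29.0).

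Over the pooled counts of each day, CYP19A1 was 223360-fold higher on Day 10 than on Day 8, with a 95% counting interval of 61832 to 1844300. CYP19A2 was at least 29665-fold higher, taking 3 counts over the Day 8 group as the floor. CYP19A3 was 799-fold higher (458 to 1547). These intervals and floors cover counting error only. All 3 genes passed the test of the rise, with FDR values of 2.00e-15, 3.42e-10 and 9.39e-10. By Day 12 CYP19A1 fell to 6.54 to 89.1 CPM (median 49.2; log2 fold change from Day 10 -5.35, SE 0.51, FDR 1.65e-10) and CYP19A2 to 0.812 to 17.8 CPM (median 7.26; -5.54, SE 0.65, FDR 1.25e-07). CYP19A3 fell to 0.116 to 2.75 CPM (median 1.02; -5.03, SE 0.68, FDR 1.49e-07), and it was the only one of the 10 genes whose Day 12 embryos overlapped with those of Day 10. All 3 genes were called higher on Day 12 than on Day 8, CYP19A2 by at least 648-fold over the pooled counts. For CYP19A3 these days overlapped, with 9 of 10 Day 12 embryos above all Day 8 embryos.

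CYP19A1 held most of the aromatase reads on both days. On Day 10, CYP19A1 held 82.7 ± 1.74% of their reads, CYP19A2 15.9 ± 1.61% and CYP19A3 1.41 ± 0.811% (n = 10). In the 9 Day 12 embryos with at least 100 aromatase counts the shares were 84.0 ± 2.69%, 13.9 ± 2.26% and 2.13 ± 0.780%. The exact permutation p-values of the differences (two-sided, n = 10 and 9, unadjusted over the 3 shares) were 0.218, 0.0371 and 0.0650. Of the 14 other annotated genes within 500000 bp of the cluster, 9 were in the table. GLDN, the nearest of these on the CYP19A3 side, also rose on Day 10 (2.59 to 50.9 CPM, log2 fold change 4.30, FDR 1.34e-13) and fell on Day 12 (-2.49, FDR 7.68e-10). TNFAIP8L3, beyond CYP19A2, rose from 0.280 to 1.48 CPM (2.38, FDR 1.5e-05), and none of the 9 fell past the thresholds on Day 10. Between Day 10 and Day 12, DMXL2 also fell (-2.02), and LYSMD2 (4.53) and TMOD2 (1.60) rose. Over all genes, 9.88% were called higher and 4.2% lower on Day 10. Between Day 10 and Day 12, 14.9% were called higher and 8.39% lower. The neighbours were looked at after the aromatase values were known.

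HSD17B1, which makes estradiol, ranged between 29.6 and 136.1 CPM on Day 8 (median 55.7), between 1273 and 2735 CPM on Day 10 (median 2201) and between 71.7 and 243 CPM on Day 12 (median 117). Day 10 did not overlap with the other days here either. The mean rose 35.2-fold, from 61.5 ± 30.5 to 2164 ± 444 CPM (log2 fold change 5.14, SE 0.28, FDR 2.00e-15), and fell to 137 ± 62.8 CPM (-3.98, SE 0.26, FDR 4.76e-14). It stayed above Day 8 on Day 12 by 1.15 on the log2 scale (SE 0.24, FDR 7.80e-05), although only 3 of 10 embryos lay above all Day 8 embryos.

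Between Day 8 and Day 12, 6 of the 10 genes were called, 5 higher (CYP17A1, the 3 aromatase genes and HSD17B1) and 1 lower (FDXR), compared with 32.5% of all genes (22.0% higher and 10.4% lower). This count fell to 3 in male embryos alone, where HSD17B1, CYP19A2 and CYP19A3 no longer passed. It also fell to 3 when the test was made against a log2 fold change of 1, where HSD17B1, FDXR and CYP19A3 no longer passed. In female embryos alone HSD17B1 and CYP19A3 did not pass.

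The genes differed in the share of the Day 10 mean that they already had on Day 8. FDXR stood at 81.2% and FDX1 at 54.6%, followed by CYP11A1 at 20.2%, POR at 6.27%, HSD17B1 at 2.84% and STAR at 2.17%. CYP17A1 stood at 0.0129%, and CYP19A3, with 12 counts, at 0.122%. Thus CYP11A1, FDX1 and FDXR had the largest shares, POR, HSD17B1 and STAR were low but above 3 counts in every Day 8 embryo, and aromatase exceeded 3 counts in 1 Day 8 embryo for CYP19A3 and in none for the other two. On Day 12 the remaining share of the Day 10 mean was 35.1% for FDX1, 33.8% for CYP11A1, 33.6% for FDXR, 6.69% for POR, 6.32% for HSD17B1, 3.38% for STAR and 1.69% for CYP17A1, and from 2.12 to 2.92% for the aromatase genes. These shares are a description of 10 embryos per day, and neighbours in the order were not tested against each other.

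The Day 10 embryos differed widely among themselves. The highest embryo exceeded the lowest 285-fold for CYP19A3, 31.2-fold for CYP17A1, 24.8-fold for CYP19A2, 22.3-fold for CYP19A1, 17.9-fold for STAR and 9.56-fold for POR. It did so 3.55-fold for CYP11A1, 2.15-fold for HSD17B1, 1.62-fold for FDX1 and 1.53-fold for FDXR. Ordered by CYP17A1, female d10_f_433 and male d10_m_435 came lowest and male d10_m_453 and female d10_f_454 highest, with the 6 embryos with numbers from d10_f_315 to d10_f_336 between them. In female d10_f_433, HSD17B1 already stood at 46.6% of its highest Day 10 embryo and CYP11A1 at 28.2%, whereas POR stood at 10.5%, STAR at 5.60%, CYP19A1 at 4.49%, CYP17A1 at 3.20% and CYP19A3 at 0.351%. Male d10_m_435, next in order, had 62.8% for HSD17B1, 33.7% for CYP11A1 and 6.46% for CYP17A1.

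**Figure D2:**
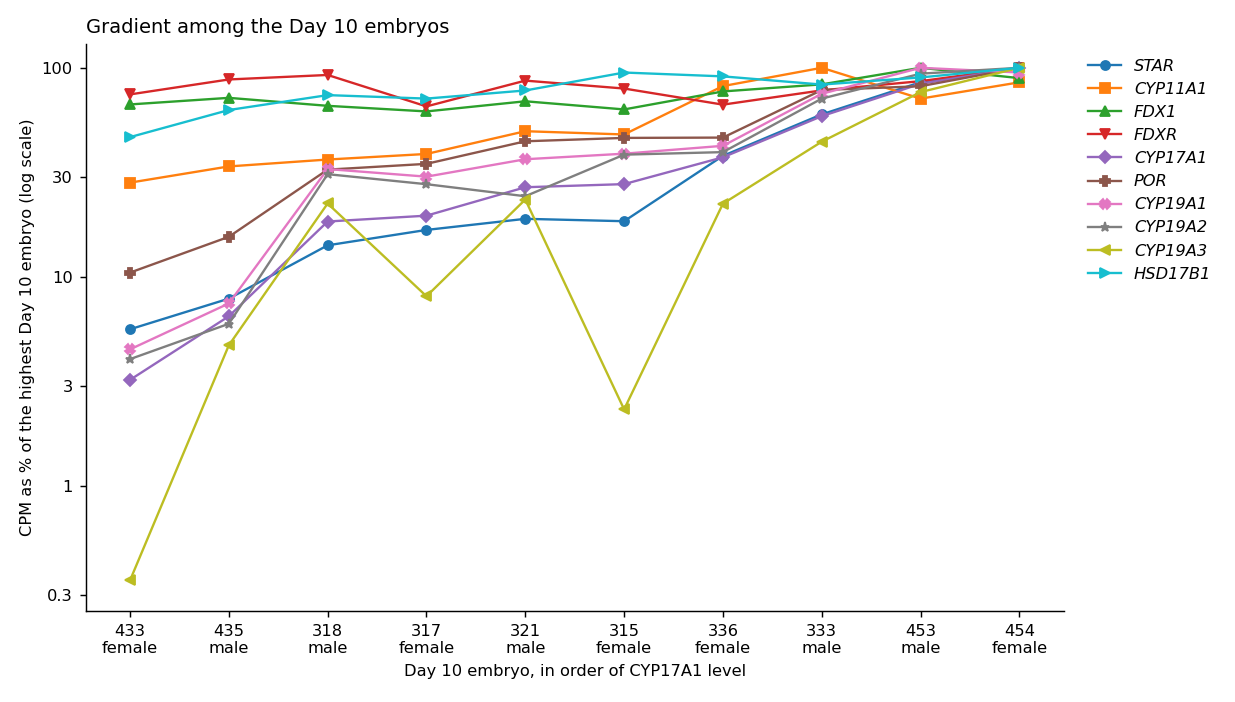
Level of each of the 10 genes in the 10 Day 10 embryos as a percentage of the highest Day 10 embryo (log axis), with embryos in order of CYP17A1 level; each line with its marker is a gene. From left to right CYP17A1 climbs from 3.20% to 100%, HSD17B1 from 46.6% to 100%, and the FDXR embryos span 1.53-fold.

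The correlation of the genes across the 10 Day 10 embryos was computed on log2 CPM for all 45 pairs, with permutation p-values adjusted over the 45. For 32 pairs the adjusted p was under 0.05. Among the 8 genes other than FDX1 and FDXR this held for 28 of 28 pairs, with Pearson r from 0.745 to 0.995, and Spearman rho passed in 27 of these. The 8 include the 3 aromatase genes, between which reads may have been split, so the pairs that hold them are not independent. The share of all gene pairs that would pass was not computed. Ranks were taken among 8082 genes with a mean of at least 10 CPM on Day 10. By r with CYP11A1, STAR ranked 65, CYP17A1 195, CYP19A1 468 and CYP19A3 856. By r with CYP17A1, POR ranked 1, CYP19A1 4, STAR 36, HSD17B1 238 and CYP11A1 414. CYP17A1 and its electron donor POR had an r of 0.995 and a rho of 1 (adjusted p 5e-05 and 0.0003 by permutation, r 0.984 without the 2 embryos farthest from the median). CYP17A1 and CYP19A1 had an r of 0.988 and a rho of 0.976 (adjusted permutation p 5e-05 and 0.00045, r 0.981 without 2 embryos). STAR and CYP11A1 had an r of 0.928 and a rho of 0.939 (adjusted permutation p 0.000762 and 0.00103, r 0.965 without 2 embryos).

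FDX1 correlated with STAR (r 0.817), CYP11A1 (0.741), CYP17A1 (0.679) and CYP19A3 (0.708), with adjusted permutation p-values of 0.00657, 0.0228, 0.0420 and 0.0303. By Spearman rho, FDX1 with CYP11A1 did not pass (rho 0.649, adjusted permutation p 0.0657), whereas CYP19A1 (0.0348) and POR (0.0494) did. With scaling by library size alone, FDX1 and CYP11A1 had an r of 0.596 (adjusted permutation p 0.105). The r of FDX1 with FDXR, the enzyme that reduces it, was 0.372 (rho 0.321, adjusted permutation p 0.340). FDXR passed with none of the 9 other genes (r 0.0741 to 0.400). Littermates among the 10 embryos are not independent and the labels do not identify them, so the p-values are approximate. Within the 6 embryos with numbers from d10_f_315 to d10_f_336, 14 of 45 pairs passed; CYP17A1 with POR had an r of 0.968 and STAR with CYP11A1 an r of 0.985 (adjusted permutation p 0.0208 for each), whereas CYP17A1 with HSD17B1 fell from 0.919 to 0.550 (adjusted permutation p 0.490).

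The same 45 pairs in the 10 Day 12 embryos, a comparison added after the Day 10 values were seen, gave 6 pairs with an adjusted p under 0.05. These were the 3 pairs of aromatase genes (r 0.902 to 0.978), between which reads may have been split. The others were CYP17A1 with CYP19A1 (r 0.801, adjusted permutation p 0.0484), STAR with FDXR (r 0.878, 0.0147) and STAR with POR (r 0.854, 0.0273). By Spearman rho, CYP17A1 with CYP19A1 (adjusted permutation p 0.0541) and STAR with POR (0.0698) did not pass. With 1 embryo left out, CYP17A1 with CYP19A1 passed in 2 of 10 runs and STAR with POR in 7 of 10. The r of STAR and CYP11A1 was 0.244 and that of CYP17A1 and HSD17B1 was -0.156, and neither passed. The difference between the days was not tested.

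**Figure D3:**
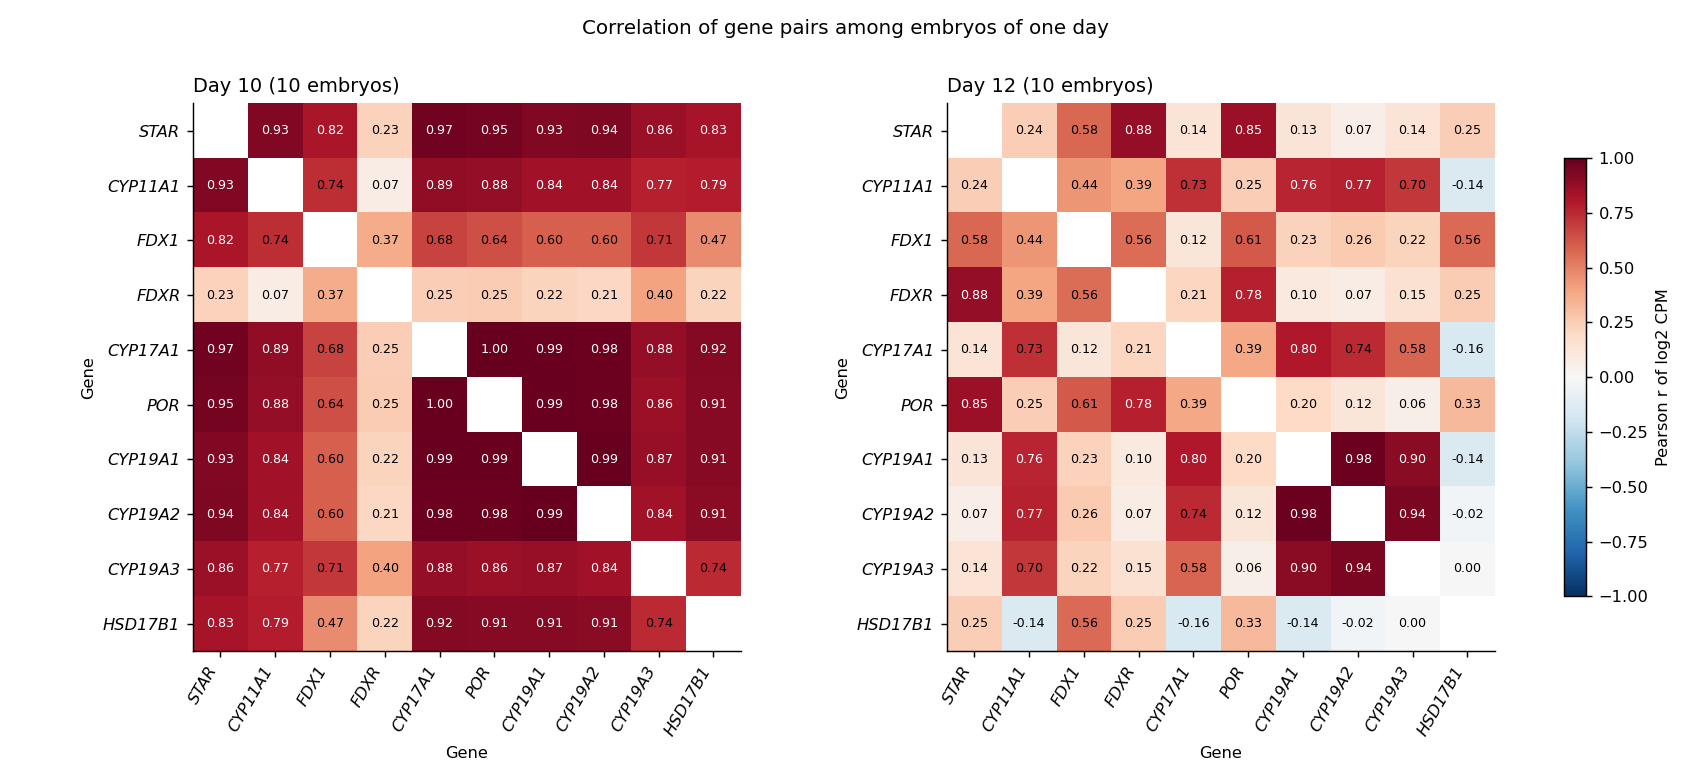
Pearson r of log2 CPM for each pair of the 10 genes among the 10 Day 10 embryos (left) and the 10 Day 12 embryos (right), from blue (-1) to red (1). On Day 10, r lies between 0.745 and 0.995 for all pairs without FDX1 or FDXR, whereas on Day 12 it lies between -0.156 and 0.978 for the same pairs.

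Each Day 10 embryo was also placed on the line from the mean Day 8 profile (0%) to the mean Day 12 profile (100%) over all genes outside the 10 and the pathway lists. The Day 10 embryos lay between 25.9% (female d10_f_433) and 53.3% (male d10_m_453), with a median of 32.2%, the Day 8 embryos between -3.68 and 8.21% and the Day 12 embryos between 90.4 and 107%. Of the 10 genes, 9 rose with this position on Day 10 with an adjusted permutation p under 0.05. The share of all genes that rose with it was not computed, so this count does not set the 10 apart from other genes. STAR had an r of 0.917 (rho 0.939, adjusted permutation p 0.0003), CYP17A1 an r of 0.845 (rho 0.952, 0.0134) and HSD17B1 an r of 0.688 (rho 0.842, 0.0353). FDXR had an r of 0.426 (rho 0.285, adjusted permutation p 0.217). With scaling by library size alone the count was 8, since HSD17B1 then had an r of 0.572 (adjusted permutation p 0.0964). The order was not the same for every gene, and the highest CYP11A1 level was not in the embryo with the highest position.

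Ratios of reads between successive steps were formed within each embryo. They were not corrected for transcript length, so only their change between days is read. CYP11A1 over STAR was 13.9 to 34.8 on Day 8, 1.19 to 7.17 on Day 10 and 9.83 to 53.6 on Day 12. All 10 Day 10 embryos lay below those of both other days, and the log2 ratio rose by 2.89 from Day 10 to Day 12 (SE 0.36, permutation p 2e-05, adjusted over 8 ratios 8e-05). CYP17A1 over CYP11A1 went the other way. It was at most 0.00728 on Day 8, 0.808 to 8.37 on Day 10 and 0.0908 to 0.425 on Day 12, again without overlap, and changed by -3.99 on the log2 scale between Day 10 and Day 12 (SE 0.38, permutation p 2e-05, adjusted 8e-05).

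The tests of the ratios compare Day 12 with Day 10. The summed CYP19 counts over CYP17A1 were at most 0.167 on Day 8, 0.337 to 0.615 on Day 10 and 0.162 to 1.13 on Day 12, and the log2 difference of 0.19 (SE 0.28) did not pass (permutation p 0.519, adjusted 0.692). HSD17B1 over summed CYP19 was far higher on Day 8, where CYP19 counts were at or near 0 (mean log2 ratio 8.67 with the prior count, against 0.42 on Day 10). It was 0.501 to 5.93 on Day 10 and 0.950 to 25.7 on Day 12, a log2 difference of 1.25 (SE 0.63, permutation p 0.0602, adjusted 0.0963). The adjusted p was 0.0397 without female d10_f_433 of Day 10 and 0.0499 without male d10_m_435.

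CYP17A1 over POR was at most 0.0216 on Day 8, 2.35 to 7.89 on Day 10 and 0.566 to 3.18 on Day 12, and summed CYP19 over POR was at most 0.00233, 1.11 to 3.25 and 0.151 to 1.54 on these days. From Day 10 to Day 12, CYP17A1 over POR fell by 1.88 on the log2 scale (SE 0.32, permutation p 7e-05, adjusted 0.000187) and summed CYP19 over POR by 1.70 (SE 0.45, permutation p 4e-04, adjusted 8e-04), both with overlap between days. CYP11A1 over FDX1 had means of 1.51, 3.91 and 3.94 on the 3 days, and FDX1 over FDXR of 1.53, 2.03 and 2.12. Between Day 10 and Day 12 the first differed by 0.01 on the log2 scale (SE 0.22, permutation p 0.975) and the second by 0.05 (SE 0.12, permutation p 0.685, adjusted 0.783).

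**Figure D4:**
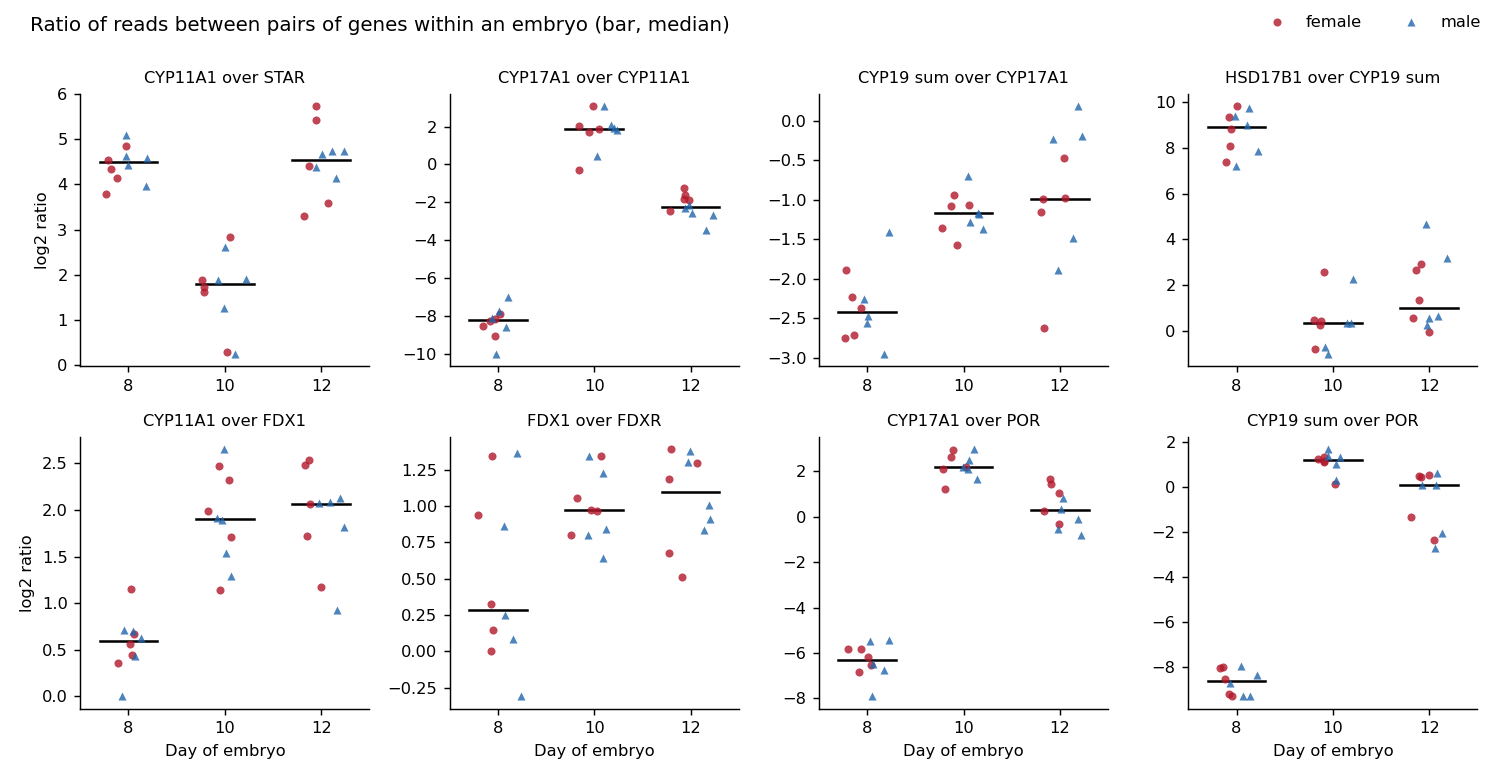
Log2 ratio of reads between pairs of genes within each embryo by day (prior count of 2), with red circles for female embryos, blue triangles for male embryos and bars for medians; each panel has its own axis. CYP11A1 over STAR dips on Day 10 and CYP17A1 over CYP11A1 peaks, while CYP19 sum over CYP17A1 has medians near each other on Days 10 and 12.

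Female and male embryos were compared within each day, without pairing by sow, since the labels do not name the sow. None of the genes tested was called at an FDR under 0.05 on Day 8 (7 tested, with the aromatase genes outside the Day 8 table), Day 10 (10 tested) or Day 12 (10 tested), compared with 0.658%, 0.223% and 0.123% of all genes. At an unadjusted p under 0.05 the counts were 0, 0 and 1, compared with 4.59%, 2.36% and 22.7% of all genes, and DESeq2 called none of the members on any day. On Day 12, CYP17A1 had 61.4, 87.5, 134, 150 and 180 CPM in the females and 28.0, 35.8, 49.9, 70.0 and 123.9 CPM in the males. The females were higher on the mean (123 ± 47.8 against 61.5 ± 38.3 CPM) but the sexes overlapped, and the log2 difference was 1.03 (SE 0.40, edgeR FDR 0.198). The robust generalized linear model named in the study's methods gave 1.27 with an FDR of 0.0231. The edgeR test of whether the sex difference differed between days called 0 of all 13103 genes at an FDR under 0.05. At an unadjusted p under 0.05 it held 100 genes for Day 10 against Day 8, 2473 for Day 12 against Day 10 and 2863 for Day 12 against Day 8, and none of the 10. With at most 12 aromatase counts per gene on Day 8, it could not show a difference from Day 8 for these 3 genes.

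Other genes of the pathway were followed by lists. HSD3B1, a 3β-hydroxysteroid dehydrogenase that turns pregnenolone into progesterone, had 0 counts in all 20 embryos of Days 8 and 10. It was found in all 10 Day 12 embryos, with 0.145 to 10.4 CPM (median 6.51), at least 443-fold above Day 10 over the pooled counts. So the Day 10 peak of CYP11A1, CYP17A1 and aromatase reads was measured in embryos without a count for this gene. The related HSD3B7 was in the table, with a mean of 0.378 CPM on Day 10, but was called in none of the intervals. No other gene of this family was looked for.

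Among 16 measured genes of other steroid enzymes, 2 were called higher on Day 10 than on Day 8 and none lower, compared with 9.88% and 4.2% of all genes. Between Day 10 and Day 12, 6 were called higher and 4 lower, compared with 14.9% and 8.39% of all genes. HSD11B2, which inactivates glucocorticoids, followed the estrogen genes, with 2.77 ± 1.42, 1053 ± 877 and 50.6 ± 50.3 CPM on the 3 days (log2 fold changes 8.56 and -4.38, FDR 9.41e-13 and 6.52e-09). HSD17B8 rose from 5.08 ± 1.24 to 12.1 ± 2.13 CPM (1.25, FDR 4.69e-09). STS, which frees steroids from their sulfates, stood at 407 ± 64.7 and 553 ± 56.7 CPM on Days 8 and 10 and fell to 18.7 ± 7.37 CPM on Day 12 (-4.88, FDR 1.68e-20). HSD17B14 fell between Day 10 and Day 12 (224 ± 54.1 to 44.5 ± 19.0 CPM, -2.33, FDR 2.72e-11). SULT2A1, a steroid sulfotransferase, had no count on Day 8 and a mean of 3.81 ± 2.04 CPM on Day 12, and HSD11B1 reached 0.939 ± 0.913 CPM; both were called higher on Day 12 than on Day 10.

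Of 8 measured genes of electron supply, 3 were called higher on Day 10 (9.88% of all genes) and none lower (4.2% of all genes). These were PGRMC1 (197 ± 26.3 to 677 ± 192 CPM, 1.78, FDR 8.84e-13), CYB5A (434 ± 23.0 to 1225 ± 340 CPM, 1.5, FDR 2.71e-12), the cytochrome b5 that aids the lyase reaction of CYP17A1, and CYB5B (61.3 ± 9.53 to 147 ± 48.8 CPM, 1.26, FDR 1.12e-07). CYB5A and CYB5B fell by Day 12 (-1.93 and -1.54).

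Of 16 measured genes of cholesterol delivery, 3 were called higher and 3 lower on Day 10, against 9.88% and 4.2% of all genes. LIPE, which hydrolyses cholesteryl esters, rose from 1.08 ± 0.335 to 10.0 ± 5.78 CPM (3.21, FDR 1.19e-10) and DBI, an acyl-CoA binding protein linked to mitochondrial cholesterol import, from 476 ± 65.0 to 1326 ± 294 CPM (1.48, FDR 7.82e-11). STARD5 rose from 0.516 ± 0.174 to 1.27 ± 0.484 CPM. SOAT1, which esterifies cholesterol for storage, fell from 825 ± 140 to 113 ± 96.5 CPM (-2.87, FDR 4.09e-08), NPC1, which exports cholesterol from lysosomes, fell from 571 ± 82.6 to 86.7 ± 16.5 CPM (-2.72, FDR 1.86e-12), and STARD3 fell by 1.03 on the log2 scale. Between Day 10 and Day 12, 4 of the 16 fell (NPC2, DBI, NPC1 and LIPE) and STARD5 rose, against 8.39% and 14.9% of all genes.

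**Figure D5:**
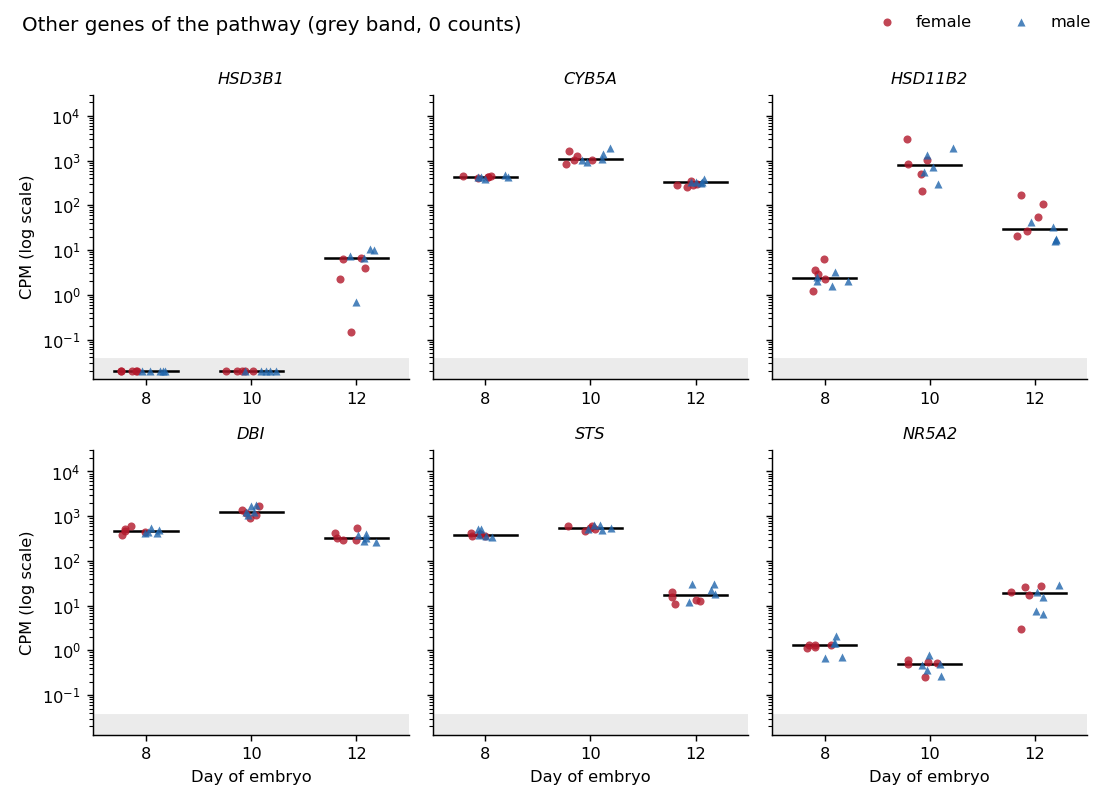
Read level (CPM, log axis) of 6 other genes of the pathway in each embryo by day, with red circles for female embryos, blue triangles for male embryos, bars for medians and a grey band for 0 counts. HSD3B1 has 0 counts in all embryos of Days 8 and 10, whereas CYB5A, HSD11B2 and DBI are highest on Day 10.

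Of 15 measured genes on a list of regulators of steroid genes, 1 was called higher and 2 lower on Day 10, where 9.88% and 4.2% of all genes were. The 15 include SF1, which is the symbol of a splicing factor and was called in no interval. The steroidogenic receptor NR5A1, also on the list, was not among the measured genes. NR2F2 rose from 0.330 ± 0.144 to 2.41 ± 0.860 CPM (2.79, FDR 5.13e-10). NR5A2, a nuclear receptor that binds promoters of steroid enzymes in other tissues, had 1.28 ± 0.409 CPM on Day 8 and was lower on Day 10, at 0.483 ± 0.157 CPM (-1.37, FDR 0.000707). It rose to 17.2 ± 9.14 CPM on Day 12 (5.14, FDR 5.15e-14). A relation between NR5A2 and the enzyme levels was not tested. GATA6 fell on Day 10 (142 ± 11.4 to 55.5 ± 4.87 CPM, -1.36, FDR 3.73e-09), and NR2F2 and GATA4 rose on Day 12.

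Of 9 measured genes of estrogen and progesterone reception, 2 were called higher and 2 lower on Day 10, beside 9.88% and 4.2% of all genes. ESR1, the estrogen receptor α, was called in no interval and averaged at most 1.29 ± 1.44 CPM. GREB1 rose from 1.12 ± 0.380 to 2.79 ± 0.938 and to 21.9 ± 9.82 CPM (1.3 and 2.97, FDR 0.000137 and 3.59e-11) and NRIP1, a corepressor of nuclear receptors, from 3.26 ± 0.900 to 7.39 ± 2.75 and to 23.7 ± 5.74 CPM (1.17 and 1.68). The orphan receptor ESRRB fell from 348 ± 34.7 to 70.8 ± 41.9 and to 0.225 ± 0.289 CPM (-2.30 and -8.22, FDR 1.62e-07 and 3.58e-16), and ESRRG fell on both days as well. NCOA1 fell by Day 12 (-1.56).

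The genes most alike to CYP17A1 over the 30 embryos, by Pearson r of log2 CPM among 8375 genes with a mean of at least 10 CPM, were CYP19A1 (r 0.991), CYP19A2 (0.987), LOC110255300 (0.979), TDGF1 (0.976) and HSD11B2 (0.973). Within the 10 Day 10 embryos they were POR (0.995), ACSS2 (0.990), ANKRD33B (0.989), CYP19A1 (0.988) and TMEM254 (0.987), among 8082 genes. For HSD17B1 they were PRKCH (0.960), GNA15 (0.955), PLAC9 (0.953), RDH16 (0.952) and LOC110259156 (0.946) over the 30 embryos and PEMT (0.981), ITPK1 (0.970), NDUFA10 (0.970), TRAPPC9 (0.967) and NTN1 (0.966) on Day 10. For CYP11A1 they were PITPNA (0.955), RASAL2 (0.954), TP53I3 (0.952), DUSP5 (0.939) and C10H1orf106 (0.938) over the 30 embryos and DEF6 (0.978), PRDX2 (0.974), FLOT1 (0.969), ATP5E (0.969) and ELOVL6 (0.965) on Day 10. The points share the 3 days, and the values are given as a description.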

How the data were processed

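Embryos were sequenced singly as 100-bp single-end reads from stranded mRNA libraries. According to the study's methods the authors trimmed reads with Trim Galore, removed 3 bases from the 5′ end, mapped them to Sscrofa11.1 with NCBI annotation in Galaxy and left out genes under a CPM minimum; the aligner, counter and the minimum are not given in the sources used here. The deposited values are raw counts per gene, in 1 table of 30 embryos and 1 per day. Gene symbols came from RefSeq by gene number. Here counts were scaled by TMM factors and tested with edgeR 4.0.16 (R 4.3.3; quasi-likelihood, robust), with the 3 days in 1 fit and the sexes within each day's table (FDR under 0.05). Standard errors were derived from the fold change and its F statistic. Some embryos of a day shared a sow according to the study, but the labels do not say which, so p-values measure the spread between embryos that are not all independent. Log2 CPM used a prior count of 2, and permutation tests were two-sided with 100000 resamples, for which 1e-05 is the smallest p. Read ratios were not set per kilobase, because no transcript lengths were used here. Of each pathway list, the 3 called genes that rose most and the 3 that fell most in an interval were eligible to be named, beside the 5 most alike genes. The fits were tested on simulated data. DESeq2 1.42.0, the robust generalized linear model, other scalings, filters and priors, each sex alone and leaving out each embryo were tried. The genes, lists and tests were chosen with earlier results of these data known.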

Additional observations from a re-analysis of the deposited data

How the results depend on the processing

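Leaving out each embryo in turn, the rise by Day 10 was called for 8 genes, the fall by Day 12 for 10 and the difference between Days 8 and 12 for 6 every time. The last count was 3 in male embryos only and 3 in the test against a log2 fold change of 1, and POR was then -0.0665 on the log2 scale in males. In the same 2 settings calls over all genes moved from 1845 to 1067 and 675 by Day 10 (977 in females), from 3050 to 2003 and 1574 by Day 12, and to 2403 of 4255 between Days 8 and 12 in the latter. The fall from Day 10 to Day 12 did not pass for CYP19A3 in female embryos only (edgeR FDR 0.00141). It did not pass for CYP11A1 in the edgeR test against a log2 fold change of 1 (FDR 0.00834). With the robust generalized linear model 1 gene, CYP17A1, differed between the sexes on Day 12. Scaling by library size alone moved the median log2 change of all genes from 0.0286 to -0.15, from 0.0431 to 0.238 and from 0.0864 to 0.102, with the same directions for the 10 genes.

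Of 45 pairs on Day 10, 14 passed in the 6 embryos with numbers from d10_f_315 to d10_f_336, where FDX1 and FDXR had an r of -0.09; leaving out 1 embryo gave 28 to 33. On Day 12 it gave 3 to 9 (3 without female d12_f_271 or male d12_m_307), and r ranged from -0.268 to 0.425 for STAR and CYP11A1, -0.265 to 0.386 for STAR and CYP17A1 (-0.0687 on the CPM scale), -0.394 to 0.0557 for CYP17A1 and HSD17B1 and -0.387 to 0.0940 for CYP19A1 and HSD17B1. The change of CYP11A1 over FDX1 ranged from -0.0762 to 0.115 and that of HSD17B1 over summed CYP19 from 0.917 to 1.49. The causes were not tested. No analysis paired by sow was possible, because the labels do not name the sow of an embryo. Embryo numbers are not shared between days or sexes. Depth limits the aromatase genes on Day 8.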
